A study of Mus musculus with 2 samples.

Results

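The genes described here encode the subunits of receptors that are themselves ion channels opened by glutamate, GABA or glycine. They are 30 listed genes among 21938 protein-coding genes of the annotation: 4 AMPA, 5 kainate, 7 NMDA, 10 GABA-A and 4 glycine receptor subunits. The rule that lists them uses gene names and no measured value, but the genes were chosen with earlier results of these data known. For each gene, the peaks within 500 bp of any annotated start site were taken as its promoter peaks. Each distal open region was given to the gene with the nearest protein-coding start site, which yielded 360 of 107430 distal regions.

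DNase-seq maps chromatin that the enzyme DNase I can cut. The tissue was hindbrain, which holds the cerebellum, pons and medulla, from mice of the B6NCrl strain on the day of birth (day 0), with males and females pooled and with no treatment or altered gene listed. There was 1 group of 2 biological replicates, recorded as different tissue samples under the same donor entry, and no second age, so every value describes this age and no change with age was measured. Replicate 1 had 270757 peaks and replicate 2 had 171790 on the placed chromosomes. Read depth is unknown. The authors' score, a whole number between 1 and 150 whose scaling is not stated, ranks peaks within a replicate. With 2 replicates of 1 group no test was made, and a missing peak means only that none was called. In bulk tissue, fewer cells with an open site and less opening per cell cannot be told apart.

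Glutamate drives most fast excitation in the brain. AMPA receptors carry the rapid current, NMDA receptors pass calcium when glutamate arrives at an already depolarised cell, and kainate receptors tune release and excitability. GABA and glycine open chloride channels, and in brainstem and spinal cord glycine shares fast inhibition with GABA. Subunits are exchanged as rodent neurons mature: GluN2B and GluN2D come early and GluN2A and GluN2C later, glycine receptors with the α2 subunit give way to ones with α1, and the GABA-A subunits α6 and δ appear in cerebellar granule cells as these settle.

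A pair of promoters is shown as examples of sequence among these genes. In the RefSeq promoter table (GRCm38), 22 of the 30 genes had an entry of 300 bases, 250 before and 50 after the start; the other genes, Gria1, Gria3, Grik1, Grin2a, Grin2b, Grin3a, Gabrd and Glra1, are named only. Grin1 encodes GluN1, the subunit every NMDA receptor needs, and Gabra6 encodes α6; they are shown because their peaks were among the strongest and the weakest. CG dinucleotides are in capitals, 33 in Grin1 (chr2:25319138-25319437, minus strand) and 2 in Gabra6 (chr11:42321023-42321322, minus strand).
Grin1 promoter: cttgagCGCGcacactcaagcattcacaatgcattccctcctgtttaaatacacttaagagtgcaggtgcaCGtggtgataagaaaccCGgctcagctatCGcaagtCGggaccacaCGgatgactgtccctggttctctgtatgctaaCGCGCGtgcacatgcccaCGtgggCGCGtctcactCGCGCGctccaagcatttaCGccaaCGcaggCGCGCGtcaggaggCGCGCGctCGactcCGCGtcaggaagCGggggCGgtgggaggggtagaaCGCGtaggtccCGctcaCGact
Gabra6 promoter: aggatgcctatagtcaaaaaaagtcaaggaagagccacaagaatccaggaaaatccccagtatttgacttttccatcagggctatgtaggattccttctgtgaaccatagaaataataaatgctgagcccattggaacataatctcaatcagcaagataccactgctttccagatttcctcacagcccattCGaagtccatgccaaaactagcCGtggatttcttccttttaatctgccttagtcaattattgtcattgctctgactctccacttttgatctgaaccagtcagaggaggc
The Grin1 stretch held peaks scoring 131 in replicate 1 and 107 in replicate 2. The Gabra6 stretch held 1 peak, of score 31, in replicate 1. The pair does not span the genes: CG dinucleotides in these windows ran between 0 at Gabra3 and 50 at Grik3.

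Promoters of these receptor genes were mostly open. A peak of each replicate lay at 27 of 30 genes (90%), against 66.3% of all protein-coding genes. Replicate 1 alone had a peak at all 30, against 70.8% of genes, and replicate 2 alone at 27, against 66.8%. Promoters rich in CG dinucleotides are open in most tissues, and the share of open genes here ran between 8.84% in the lowest and 98.2% in the highest decile of observed over expected CG; averaged over the deciles that the 30 genes fall in, that share was 76.1%. Median observed over expected CG was 0.609 for the receptor genes and 0.552 for all genes. Over the 27 open receptor genes, Spearman's rho between observed over expected CG and the mean percentile of the promoter score was 0.366.

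The open receptor promoters scored below the typical open promoter. The 27 genes had a median highest score of 109 in replicate 1 and 82 in replicate 2, against 129 and 109 over all 14541 open genes. Of the 27, 21 lay below the median of open genes in both replicates and 1, Grin3a, lay above it in both. The highest score was larger in replicate 1 at 26 of the 27, all but Gabrb2, where the highest peaks of the replicates stood at different starts, and the order of the genes was similar in both (Spearman's rho 0.902 over 27 genes of the same 2 libraries). Hotspots are wider domains of raised cutting with a −log10 q of the authors. The widest hotspot within 500 bp of a gene's start sites had a median width of 1263 bp over 30 genes in replicate 1. In replicate 2 that median was 1149 bp over 27 genes. The highest −log10 q of a gene reached the cap of 100 at 28 of 30 genes in replicate 1 and at 24 of 27 in replicate 2. Gabra6 and Grin3b missed the cap in replicate 1, with 2.97 and 4.24, and Grin2c, Grin2d and Gabrd missed it in replicate 2, with 2.41, 4.82 and 2.28.

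**Figure D1:**
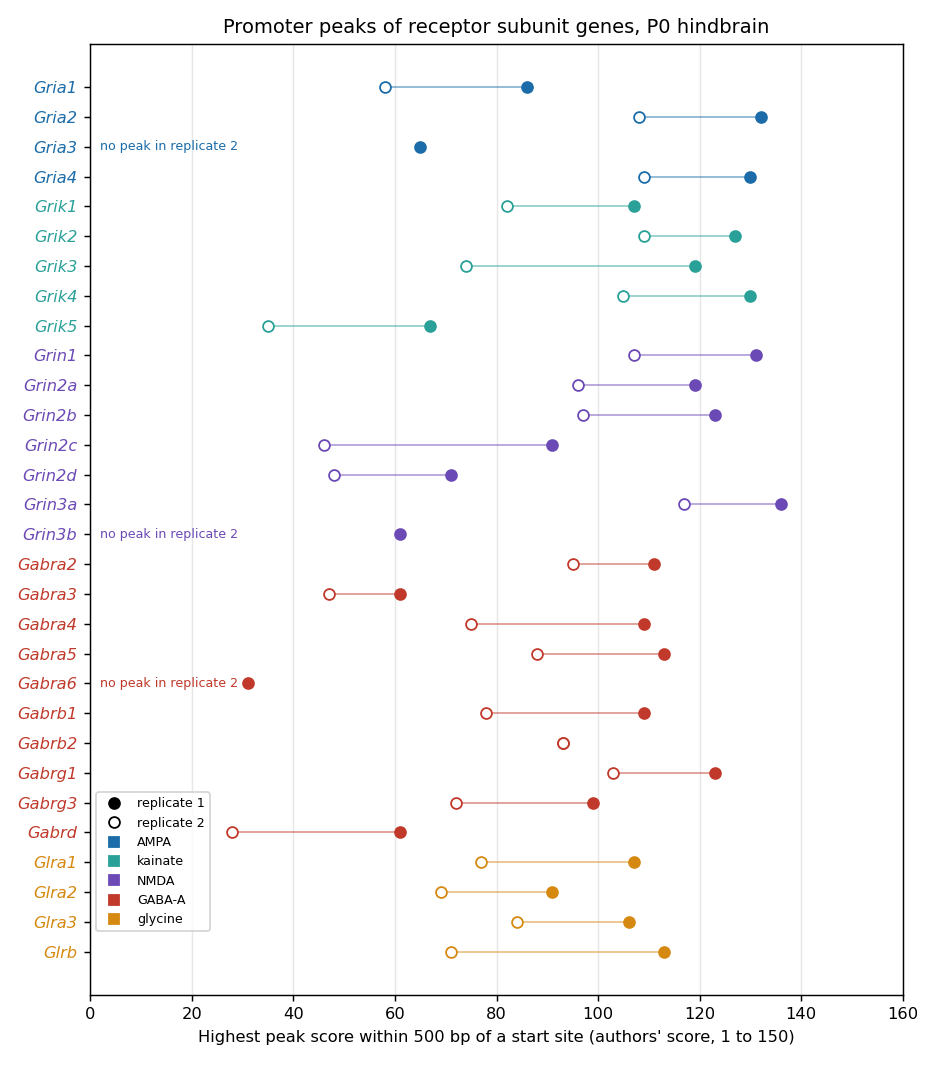
Highest score of a peak within 500 bp of a start site (horizontal axis, the authors' score) for each of the 30 genes, grouped by receptor class; filled circles are replicate 1, open circles replicate 2. Grin3a stands highest at 136 and 117, and Gria3, Grin3b and Gabra6 have a filled circle only.

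Among AMPA receptor genes, 3 of 4 were open in both replicates. Gria2 encodes GluA2, whose edited form keeps calcium out of the channel. Its peaks scored 132 in replicate 1 and 108 in replicate 2, and those of Gria4, whose subunit GluA4 is known from fast hindbrain synapses, scored 130 and 109. Gria1, which encodes GluA1, was lower, at 86 and 58. Gria3, on the X chromosome, had a peak of 65 in replicate 1 and none in replicate 2, at any of its 9 start sites. The Gria2 promoter (chr3:80802786-80803085, minus strand) is shown as the strongest AMPA receptor promoter with a sequence, with its 26 CG dinucleotides in capitals.
Gria2 promoter: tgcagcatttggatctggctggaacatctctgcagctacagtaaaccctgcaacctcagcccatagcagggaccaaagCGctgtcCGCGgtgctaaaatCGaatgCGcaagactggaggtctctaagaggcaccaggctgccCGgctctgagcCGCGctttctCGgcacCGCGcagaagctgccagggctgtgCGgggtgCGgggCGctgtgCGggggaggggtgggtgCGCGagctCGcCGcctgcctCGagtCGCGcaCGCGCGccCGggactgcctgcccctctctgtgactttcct

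All 5 kainate receptor genes were open. Grik2, for the pore-forming GluK2, scored 127 and 109 in replicates 1 and 2, Grik4, for GluK4, which needs a GluK1 to GluK3 partner, scored 130 and 105, Grik3 scored 119 and 74, and Grik1 scored 107 and 82. Grik5, for GluK5, the most widely used partner subunit, was the lowest at 67 and 35 in windows of 500 bp; in windows of 1000 bp it had 114 and 88, against 107 and 82 at Grik1. A 500 bp window of Grik5 overlaps one of the neighbouring gene Zfp574, so peaks in the overlap cannot be assigned to one of the genes. Windows of Grik2, Grin2b, Gabrg3 and Gabrb1 also overlap one of another annotated gene that is not protein-coding (Gm48123, Gm26653, Gm9962 and Gm38562). The same limit holds for scores of peaks there.

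The NMDA receptor genes held the highest and some of the lowest promoter scores, and 6 of 7 were open in both replicates. Grin3a, for GluN3A, a subunit of young neurons that lowers calcium entry, scored 136 in replicate 1 and 117 in replicate 2. Grin1 followed at 131 and 107, with a second open site at a start 14087 bp into the gene at 81 and 71. Grin2b scored 123 and 97, and Grin2a 119 and 96. The Grin2a scores came from a start 1290 bp inside the gene, and its outermost start scored 85 and 64. Grin2c, for a subunit known from mature cerebellar granule cells, scored 91 and 46 at the start of an inner transcript, 1814 bp inside the gene; its outermost start had a peak of 41 in replicate 1 and none in replicate 2. Grin3b, for a subunit known from motor neurons, had a peak of 61 in replicate 1 and none in replicate 2.

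Grin2d, for GluN2D, an early subunit of brainstem and diencephalon, was read very differently by different start sites. Its outermost annotated start had no peak in either replicate, and its promoter scores of 71 and 48 came from a start 7949 bp inside the gene. The strongest open region of the gene scored 139 and 114, rank 283 of the 107430 distal regions, and lay 978 bp downstream of the nearest GENCODE start and 531 bp downstream of the RefSeq start. It counts as distal because it is over 500 bp from every GENCODE start. Both distances run from its centre, and its near edge lies within 500 bp of the RefSeq start. It is shown with its 29 CG dinucleotides in capitals (chr7:45866076-45866225, minus strand); 114 of its 150 bases are coding sequence of Grin2d.
Grin2d region: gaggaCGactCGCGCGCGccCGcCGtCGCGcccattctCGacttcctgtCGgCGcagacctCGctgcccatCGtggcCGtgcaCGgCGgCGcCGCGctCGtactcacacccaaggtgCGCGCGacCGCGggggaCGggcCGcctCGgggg
With promoter windows of 1000 bp, that region would raise the promoter scores of Grin2d to 139 and 114.

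GABA-A receptor promoters were open at 9 of 10 genes, with medians of 109 and 78. Gabrg1, for γ1, was highest at 123 in replicate 1 and 103 in replicate 2, with Gabra5, for α5, at 113 and 88 and Gabra2, for α2, at 111 and 95. Gabra4, for α4, and Gabrb1, for β1, lie head to head on chromosome 5 and shared a single peak of 109 and 75, which cannot be assigned to one of them; Gabrb1 has a second start 41819 bp inside the gene with scores of 89 and 78. Gabrb2, for β2, had a highest score of 93 in both, but at different starts: 93 and 63 in replicates 1 and 2 at its outermost start, and 89 and 93 at starts 1522 to 1593 bp inside the gene. Gabrg3, for γ3, scored 99 and 72. The lowest were Gabrd, for δ, at 61 and 28, Gabra3, for α3, at 61 and 47, and Gabra6, at 31 in replicate 1 only.

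The 300-base RefSeq window of Gabrg1 had 3 CG dinucleotides and no overlapping peak in either replicate; its promoter peaks of 123 and 103 stood 186 and 206 bp downstream of the start. Upstream, 0.664 kb from the start, stood the second highest distal region of all 30 genes, with scores of 119 and 104 (chr5:70843176-70843385, minus strand). It is shown with an E-box of proneural factors (CAGCTG) and an Rfx site (GTTGCC) in capitals, which are letter matches and not measured binding.
Gabrg1 region: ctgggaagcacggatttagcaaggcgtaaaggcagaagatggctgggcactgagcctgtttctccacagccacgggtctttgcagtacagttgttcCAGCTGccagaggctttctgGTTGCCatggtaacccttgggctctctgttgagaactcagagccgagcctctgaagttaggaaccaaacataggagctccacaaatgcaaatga

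All 4 glycine receptor genes were open in both replicates, within a narrow band. Glra1, for α1, scored 107 in replicate 1 and 77 in replicate 2. Glra3, for α3, scored 106 and 84. Glrb, for the β subunit that binds the scaffold gephyrin, scored 113 and 71. Glra2, for α2, on the X chromosome, was lowest at 91 and 69. The 3 X-linked genes, Gria3, Gabra3 and Glra2, were each among the lower scores of their class. Over all genes, 48.9% of 948 X-linked promoters were open in both replicates and 67.6% of 20807 autosomal ones, and median peak scores were 36 and 32 on the X and 45 and 39 on autosomes; the part of the X chromosome in these 3 results was not tested.

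Adult and early subunits overlapped in their promoter scores. Of the adult subunits Grin2a, Grin2c, Gabra6, Gabrd, Glra1 and Glra3, 5 of 6 were open in both replicates, and of the early subunits Grin2b, Grin2d, Grin3a, Gabra2, Gabra3, Gabra5 and Glra2, all 7 were. Among all protein-coding genes, 66.3% were open. Median observed over expected CG was 0.618 for adult and 0.431 for early subunits. Summed over the CG deciles of their genes, the shares of open genes came to 4.41 of 6 adult and 4.31 of 7 early subunits. Median scores over the open genes were 106 in replicate 1 and 77 in replicate 2 for adult subunits, and 111 and 88 for early subunits, and the ranges overlapped. Within the pairs that replace each other, Grin2a scored 119 and 96 against 123 and 97 at Grin2b, and Glra1 scored 107 and 77 against 91 and 69 at Glra2. The Grin2a scores came from a start 1290 bp inside the gene. At the outermost starts alone, Grin2a scored 85 and 64 against 123 and 97 at Grin2b. The adult subunits known from cerebellar granule cells, Gabra6, Gabrd and Grin2c, a grouping made after their values were seen, were the lowest 3 of the adult list in both replicates. The lowest early subunits, Gabra3 and Grin2d, overlapped with them, but in windows of 1000 bp Grin2d scored 139 and 114.

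**Figure D2:**
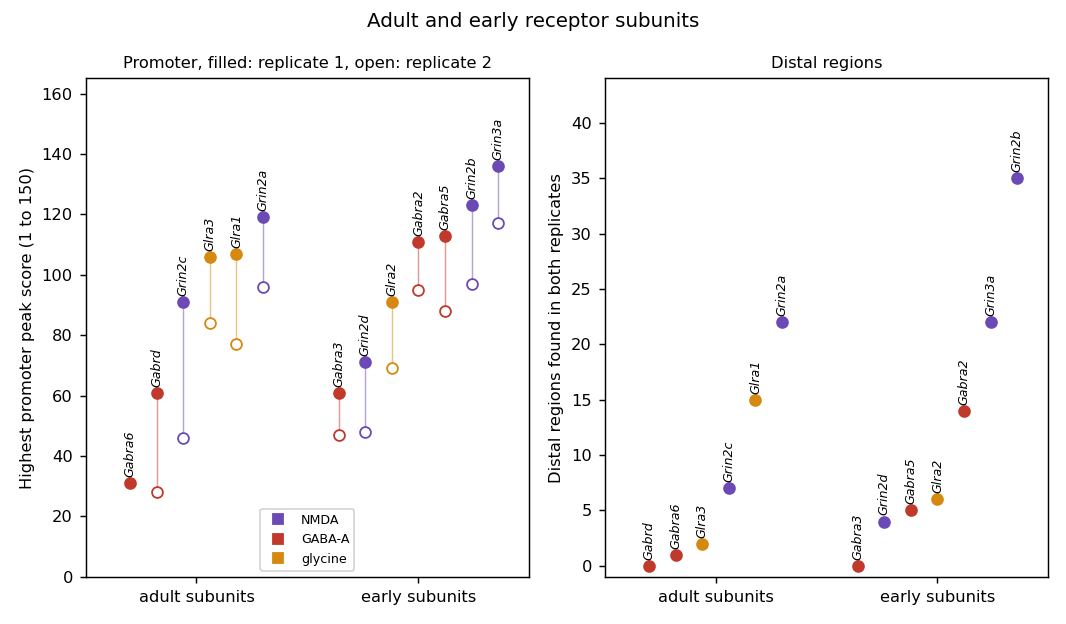
Highest promoter peak score (left panel; filled circles replicate 1, open circles replicate 2) and number of distal regions found in both replicates (right panel) for the 6 adult and 7 early subunits. Both lists span low and high values: distal numbers run between 0 and 22 in adult subunits and between 0 and 35 in early subunits.

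Distal open regions found in both replicates were common near these genes. At least 1 lay nearest to 28 of 30 genes (93.3%), against 68.7% of all protein-coding genes; Gabra3 and Gabrd had none. The median was 6.5 per receptor gene and 2 per gene over all genes. Many receptor genes have large territories: 17 of 30 fell in the top decile of genes by territory, meaning the sequence closer to that gene's starts than to those of any other coding gene. The number of regions followed the territory (Spearman's rho 0.685 over 30 genes of the same libraries and annotation). Per 100 kb of territory, 11 of 30 genes exceeded the genome-wide rate of 3.94 regions, against 47.0% of all genes, so the receptor genes were not denser in distal regions than other genes by this count.

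The glutamate receptor genes held most of these regions. Their 16 genes had 286 regions, a median of 19, and the 14 GABA-A and glycine receptor genes had 74, a median of 4. In the top decile of territories, where the median gene had 18 regions, 8 of 11 glutamate receptor genes lay above that number and 0 of 6 GABA-A and glycine receptor genes did. Per 100 kb of pooled territory the rates were 3.10 and 1.85. By class, the pooled rate was 4.25 for NMDA, 2.97 for kainate, 2.40 for AMPA, 2.07 for glycine and 1.75 for GABA-A receptor genes. Single large territories weigh on these rates: Grik2 held 2800 of 4203 kb in the kainate class and Gria3 1076 of 2835.5 kb in the AMPA class. The median rate per gene was 7.28 for NMDA, 5.03 for kainate, 2.51 for AMPA, 1.21 for glycine and 1.51 for GABA-A receptor genes. By that measure, glycine and GABA-A receptor genes changed order.

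**Figure D3:**
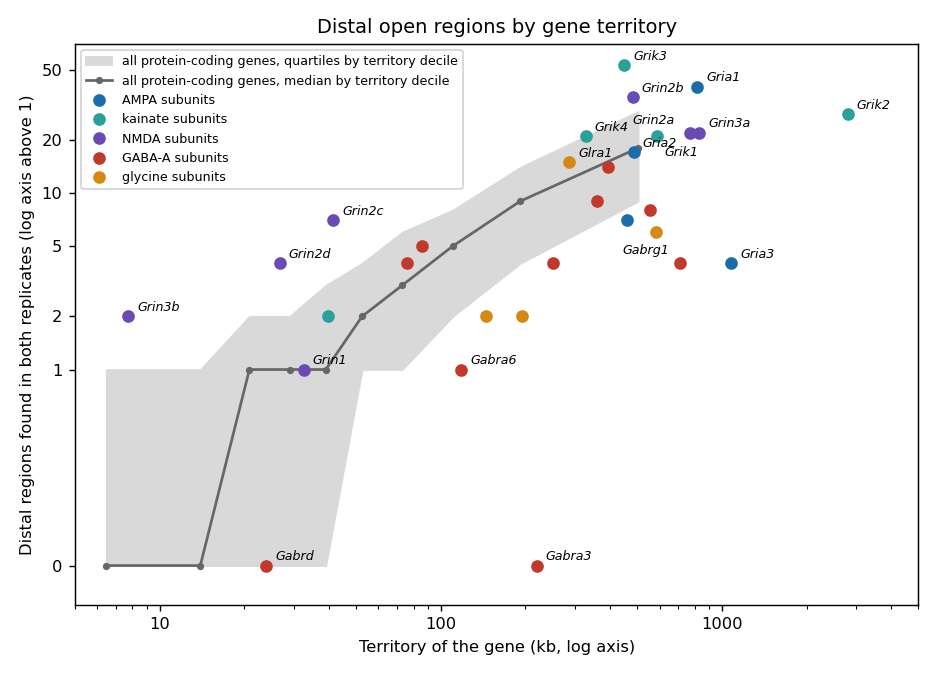
Number of distal regions found in both replicates (vertical axis, log above 1) against the gene's territory in kb (log axis) for the 30 genes, coloured by class; the grey line and band are the median and quartiles of all protein-coding genes by territory decile. Grik3, with 53 regions, lies far above the band, and the X-linked gene Gabra3, with 0, lies below it.

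Grik3, for the kainate receptor subunit GluK3, stood first with 53 regions, 11.8 per 100 kb. Gria1 followed with 40, Grin2b with 35, Grik2 with 28, and Grin2a and Grin3a with 22 each; the highest 5 genes together held 178 of the 360 regions. Grik2 had the largest territory, 2800 kb, and a rate of 1.00 per 100 kb. The highest rates were at short genes with few regions: Grin3b had 2 regions and 25.9 per 100 kb, Grin2c had 7 and 16.9, and Grin2d had 4 and 15.0. In Grin2c, 6 of the 7 regions lay downstream of the gene. Counted by position in the gene's body or up to 50000 bp from it, Grik3 had 41 regions, Grin2c 20, Grin3b 10 and Grin2d 9, and Grik5 and Gabrb1 had 21 and 19, against 2 and 4 by the nearest start. Gria3, with a territory of 1076 kb, had 4 regions in both replicates and 23 in replicate 1 alone. Gria3 is X-linked. Of the peaks on the X and the autosomes, 2.30% in replicate 1 and 2.35% in replicate 2 lay on the X. The part of the X chromosome in the Gria3 count was not tested. The other genes not yet given held between 1 and 21 regions each. Gabrg1, Gabra2, Gabra4 and Gabrb1, which neighbour each other on chromosome 5, had 26 in all, 1.82 per 100 kb.

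The strongest Grik3 region lay 3.89 kb upstream of the start (chr4:125486736-125486885, plus strand; scores 117 in replicate 1 and 90 in replicate 2), and the second 212 kb inside the gene (chr4:125702996-125703145, plus strand; 114 and 92). Both are shown, as the leading regions of the gene with most; neither held a searched motif.
Grik3 upstream region: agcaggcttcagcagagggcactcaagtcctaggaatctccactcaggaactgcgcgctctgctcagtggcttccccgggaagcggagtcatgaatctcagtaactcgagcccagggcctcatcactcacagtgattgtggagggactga
Grik3 intragenic region: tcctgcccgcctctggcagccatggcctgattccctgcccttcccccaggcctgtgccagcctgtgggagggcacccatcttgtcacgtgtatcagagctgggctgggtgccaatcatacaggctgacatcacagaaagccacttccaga

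Adult and early subunits again overlapped. The 6 adult subunits had 47 regions, a median of 4.5, and the 7 early subunits had 86, a median of 6; both came to 3.28 per 100 kb of pooled territory, while the median rate per gene was 1.95 in adult subunits and 3.55 in early subunits. Grin2a had 22 regions over 769 kb of territory, against 35 over 481 kb at Grin2b. Glra1 had 15 and Glra2 had 6. Gabra6 had 1, of scores 56 and 31, overlapping one of its exons. Gabra3 had none found in both replicates over 219 kb, 0 in replicate 1 alone and 1 in replicate 2 alone. Gabra3 and Glra2 are X-linked, and the part of the X chromosome in their counts was not tested. A wider adult list that adds Gabra4, Gabrb2 and Grin3b had 7 of 9 genes open and 62 regions.

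The strongest regions of the early subunits Gabra5 and Gabra2 are shown because both lie inside the genes and carry a searched motif in capitals. That of Gabra5 lay 35.0 kb from the start (chr7:57474256-57474405, minus strand; scores 110 in replicate 1 and 82 in replicate 2) and holds the E-box CAGATG. That of Gabra2 lay 1.98 kb from the start (chr5:71092576-71092745, minus strand; 91 and 77) and holds a full NFI site, TGGC and GCCA 5 bases apart. Within the same capitals lies an overlapping Rfx site (GTTGCC on the other strand).
Gabra5 region: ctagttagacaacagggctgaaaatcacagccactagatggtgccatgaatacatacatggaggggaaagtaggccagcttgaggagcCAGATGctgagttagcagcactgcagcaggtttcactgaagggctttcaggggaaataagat
Gabra2 region: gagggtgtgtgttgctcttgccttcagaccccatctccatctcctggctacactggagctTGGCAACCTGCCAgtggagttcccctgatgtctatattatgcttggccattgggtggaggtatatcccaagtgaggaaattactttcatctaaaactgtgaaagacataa

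Other leading regions lay near a start or far from it. Among the 10 highest over all receptor genes, that of Gria2 lay 1.38 kb from its nearest start (chr3:80801116-80801285; scores 100 in replicate 1 and 97 in replicate 2), that of Gabrb1 1.22 kb (chr5:71701076-71701225; 105 and 80) and that of Grik2 1.61 kb (chr10:49784936-49785105; 100 and 82). Farther out were a region of Grik1 at 82.7 kb, downstream of the gene (chr16:87841096-87841245; 119 and 90), and one of Grin2b at 264 kb, inside it (chr6:135907656-135907805; 112 and 75). The highest regions of the adult subunits scored 99 and 75 at Glra1 (183 kb upstream), 80 and 70 at Grin2a (77.8 kb upstream), 84 and 55 at Grin2c (33.3 kb away, downstream) and 44 and 27 at Glra3 (123 kb away, inside the gene). Those of the remaining early subunits scored 91 and 65 at Grin3a (68.1 kb upstream) and 78 and 58 at Glra2 (0.708 kb upstream).

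The regions of receptor genes lay farther from the starts than the typical distal region, and their median scores were slightly lower. Their median distance was 68.1 kb, against 26.1 kb over all distal regions; 38.6% lay beyond 100 kb, against 22.5%, and 17.2% within 10 kb, against 31.2%. Within the gene's own body lay 60.3%, against 44.1%. The median gene length of the 30 receptor genes was 187 kb, and 17 of them were in the top decile by territory. The part of gene and territory size in these distances and shares was not tested. Kainate receptor regions had the longest median distance, 76.2 kb, and glycine receptor regions the shortest, 35.6 kb. Median scores were 56 in replicate 1 and 37 in replicate 2, against 60 and 40 over all distal regions, and 17 of 360 (4.72%) were in the top decile of all distal regions by score.

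**Figure D4:**
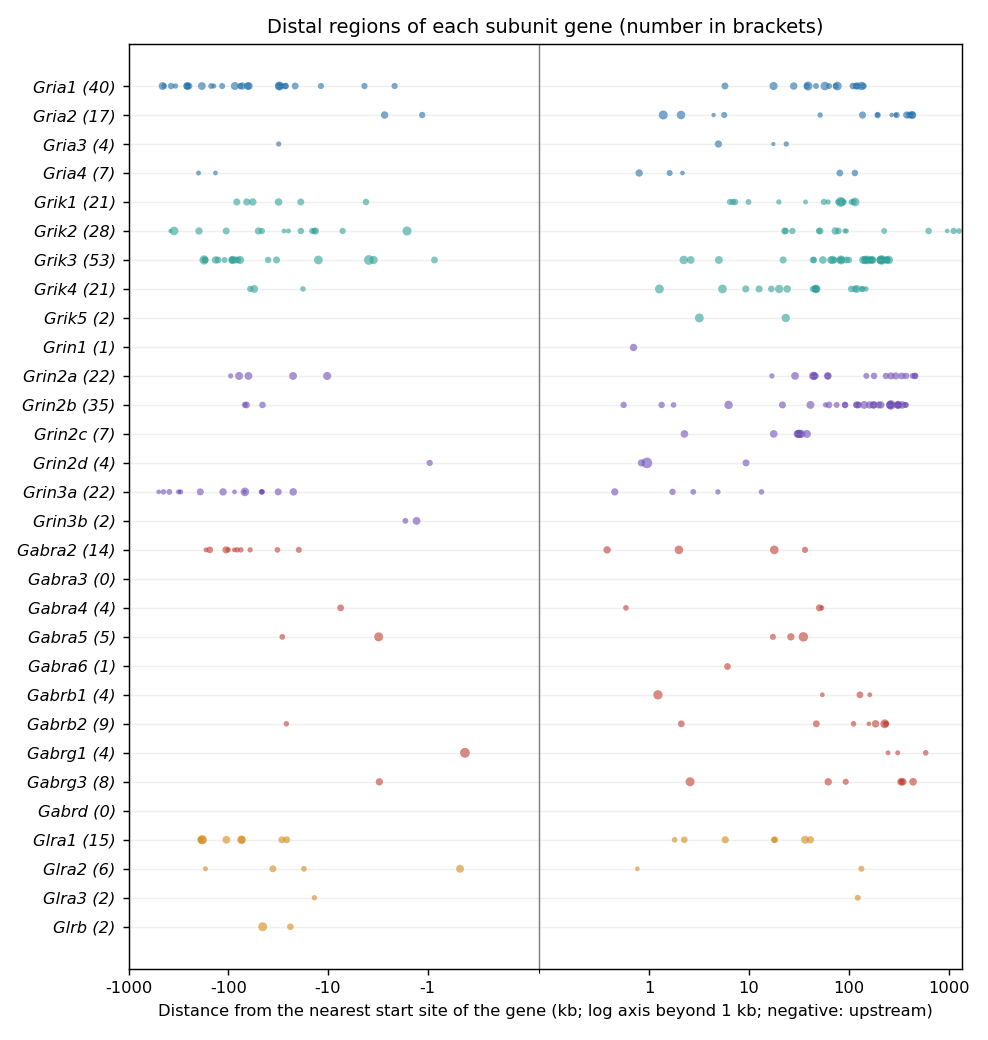
Signed distance of each of the 360 distal regions to the nearest start of its gene in kb (log beyond 1 kb; negative is upstream), 1 row per gene with its number of regions; circle area grows with the score in replicate 1. Gria1 and Grin3a have many regions upstream, and those of Grin2b lie mostly inside the gene.

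Searched on both strands in 200 bp around the centre of each region, letter motifs of transcription factors were counted at receptor genes and over all distal regions. An E-box of proneural factors (CAGATG or CAGCTG) was in 43.6% of the 360 regions and in 39.5% of all distal regions. An Rfx site (GTTGCC) was in 14.4% and 11.7%, a Sox site (ACAATG) in 10.8% and 10.6%, a TATA box (TATAAA) in 10.8% and 7.56%, a GC box (GGGCGG) in 3.89% and 6.76%, and a full NFI site in 3.61% and 3.36%. The CRE was in 1 region, and the RE1 letters searched (CAGCACC and GGACAG, 2 bases apart) in none, against 0.117% of all regions. In the 300-base promoters, the GC box was in 12 of 22 genes (54.5%), against 49.2% of 17492 coding genes, and the E-box in 3 of 22 (13.6%), against 30.7%. The CRE, RE1 and NFI letters were in none of the 22 windows; among all genes they were in 2.54%, 0.0515% and 0.903%.

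Genes for the proteins that work with these receptors were open as well. Of 37 listed, 35 had a promoter peak in both replicates, against the 66.3% of all genes: 14 of 14 auxiliary subunits, 12 of 12 scaffolds, both chloride cotransporters, and 7 of 9 genes of transmitter synthesis and transport. Slc12a2, for NKCC1, which loads young neurons with chloride, scored 139 in replicate 1 and 114 in replicate 2, and Slc12a5, for KCC2, which later extrudes it, scored 115 and 87. Slc17a6, for the vesicular glutamate transporter VGLUT2 of brainstem neurons, scored 114 and 73, while Slc17a7, for VGLUT1, known from mature cerebellar granule cells, had 53 in replicate 1 and no peak in replicate 2. Slc17a8, of the same list, likewise had 47 in replicate 1 and no peak in replicate 2. Gphn, for gephyrin, scored 142 and 119.

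The labelled tissue was checked against marker genes. A promoter peak of both replicates stood at 12 of 12 hindbrain, 6 of 6 neuronal and 5 of 5 astroglial genes, and at 2 of 7 forebrain, 1 of 4 microglial and 1 of 4 endothelial genes. The part of each cell type in the receptor promoters was not tested.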

How the data were processed

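DNase-seq peaks and hotspots of 2 replicates of P0 hindbrain were used. Per the labels, both were called on mm10 for each library separately. The deposited peak tables hold a score from 1 to 150 whose scaling is not stated; the authors' hotspot tables hold a −log10 q value with a cap of 100. The aligner, the caller and its version are not stated there. Peaks are almost all 150 bp wide. Peaks off the placed chromosomes were left out, leaving 270757 of 271150 in replicate 1 and 171790 of 172002 in replicate 2. Read depth is unknown.

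From these, start sites were read from GENCODE M21, of the same build as the peaks. A gene was open when a peak of each replicate lay within 500 bp of any of its start sites; these peaks need not overlap. Distal regions are merged peaks of both replicates (overlap of at least 1 bp) over 500 bp from every start site, given to the nearest protein-coding start. Sequences are from RefSeq and GRCm38. Percentiles are ranks of the score within a replicate. The members, the adult and early lists, the partner and marker lists and the motifs were chosen with earlier results of these data known, and no test was run on them; the result of 1 marker list is not reported here. All 30 members are named; values are given in full for members missing a promoter peak in a replicate, for adult and early subunits and for the extremes of each class; regions are the 10 with the highest mean percentile and the highest of each adult or early subunit, of which those with a sequence or a result in the text are described. The alternatives were each replicate alone, peaks at or above the median score, hotspots in place of peaks, a reciprocal overlap of 50%, wider windows of 1000 bp, the outermost start alone, regions in the gene's body or up to 50000 bp from it in place of the nearest start, numbers per 100 kb, the wider adult list and autosomes only. The functions were tested on simulated data. Python 3.11.15, numpy 2.4.6, scipy 1.17.1 and matplotlib 3.10.9 were used.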

Additional observations from a re-analysis of the deposited data

How the results depend on the processing

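The count of 27 open receptor genes was 30 with replicate 1 alone, 27 with replicate 2 alone, with hotspots in place of peaks and with windows of 1000 bp, 25 with peaks at or above the median score, which lost Grik5 and Gabrd, 25 with the outermost start alone, which lost Grin2c and Grin2d, and 25 on autosomes only, which leaves out the 3 X-linked genes. Distal numbers moved more. With 1 replicate left out, the total of 360 regions ran between 451 and 815, AMPA between 85 and 157, kainate between 157 and 288, NMDA between 108 and 195, GABA-A between 65 and 116, glycine between 36 and 59, adult subunits between 60 and 124 and early subunits between 106 and 155. With peaks at or above the median score the total was 170, with 31 for AMPA, 69 for kainate, 40 for NMDA, 19 for GABA-A, 11 for glycine, 27 for adult and 28 for early subunits. Per 100 kb of territory the values were 2.72 over all, 2.40, 2.97, 4.25, 1.75 and 2.07 for AMPA, kainate, NMDA, GABA-A and glycine receptor genes, and 3.28 for adult and for early subunits. Counting regions in the gene's body or up to 50000 bp from it kept the totals within 1.5 times (389 over all, 51 for AMPA, 133 for kainate, 109 for NMDA, 67 for GABA-A, 29 for glycine, 53 for adult and 82 for early subunits) but moved single genes further: Grik5 had 21, Grin2c 20, Gabrb1 19, Grik4 34, Gabrg3 13, Gabra5 10, Grin3b 10, Grin2d 9, Glrb 8, Grin1 4 and Gabrd 2, and lower numbers stood at Grin2a with 14, Gria2 with 8, Gabra2 with 6 and Gabrg1 with 1. Of the alternative values, 92 stayed within 1.5 times the main count and 24 moved further, among them those per 100 kb, which are in another unit. The values are counts without a direction, so none could reverse. No paired analysis was possible because the result comes from no test. Read depth is unknown, so whether a site without a peak was closed or below what these libraries could show cannot be told apart.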
